A study of Arabidopsis thaliana with 39 samples.

Results

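Salicylic acid is the plant hormone best known for defence against pathogens that feed on living tissue, and 10 of its pathway and marker genes were followed here through 36 RNA libraries of Arabidopsis thaliana seedlings. The genes were chosen by name from what is known of the pathway, with earlier results of these data known. They are 10 of the 32678 genes in the deposited tables. They are ICS1 (AT1G74710), EDS5 (AT4G39030) and PBS3 (AT5G13320) of salicylic acid synthesis, the defence regulators EDS1 (AT3G48090), PAD4 (AT3G52430), NPR1 (AT1G64280) and CBP60G (AT5G26920), and the pathogenesis-related genes PR1 (AT2G14610), PR2 (AT3G57260) and PR5 (AT1G75040). Of these, 9 passed the expression filter and were tested among 20748 genes, and PR1 did not.

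The study treated seedlings of 4 genotypes with methylglyoxal (MG), a reactive by-product of sugar breakdown, or with salt, and sequenced poly(A)-selected RNA with 3 libraries in every one of 12 groups. Among the genotypes were glyI2, a line named for the glyoxalase I gene GLYI2, whose enzyme family detoxifies methylglyoxal, the lines OE1 and OE5, which the labels describe as 35S::GLYI2 35S::GLYII4 #1 and #5, and wild type (WT). The treatments were 200 µM MG for 12 h, 100 mM NaCl for 12 h, and a mock group whose treatment is given as none. The seedlings were 5 days old and had grown on solid medium of reduced salt strength. The 35S promoter is active in most plant tissues. As the labels tie no library to a culture, plate or day, a p-value here measures only how far libraries of a group spread, which may be technical. The series' 3 chromatin samples were not analysed here.

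Counts per library summed to between 21024878 and 22383131, so depth was much the same in all groups. Levels are given as CPM, counts relative to the library total after TMM scaling, with factors from 0.759 to 1.28, and as mean ± SD of 3 libraries. GLYI2 (AT1G08110) averaged 7.93 ± 2.25 CPM in glyI2 mock seedlings and 61.3 ± 8.23 CPM in WT mock seedlings, a log2 fold change of -2.95 ± 0.23 (SE, adjusted p = 4.1e-09). Libraries carrying the OE1 and OE5 labels did not exceed WT in GLYI2 under mock, at 28.1 ± 6.98 CPM in OE1 (-1.13 ± 0.22, adjusted p = 0.0358) and 51.3 ± 6.72 CPM in OE5 (-0.26 ± 0.21, adjusted p = 0.963). GLYII4 (AT2G43430) stood at 31.0 ± 4.08 CPM in OE1 and 32.1 ± 5.99 CPM in OE5, against 10.7 ± 1.53 CPM in WT. Under MG against mock, 1 of these 2 genes was called higher in OE1 and 1 in OE5, against 0 in glyI2 and 0 in WT. In 7 libraries, each replicate 3 of a NaCl or mock group, the morning clock gene CCA1 stood at -1.91 to 1.08 log2 CPM, against 4.24 to 6.31 log2 CPM in the other 29. The leaf markers RBCS1A, CAB3 and LHCB2.2 together stood at 13540 to 49568 CPM.

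In Arabidopsis, most salicylic acid made after infection comes from chorismate in the plastid. ICS1 makes isochorismate, the EDS5 transporter carries it to the cytosol, and PBS3 joins it to glutamate to give a product that breaks down to salicylic acid. EDS1 and PAD4 form a complex that relays immune receptor signals, and the transcription factors CBP60G and SARD1 switch on ICS1 and its partners. NPR1, a salicylic acid receptor, works with TGA factors to turn on PR1, PR2 and PR5, the classic markers of the response.

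Ranked per transcript length by the authors' FPKM over all 36 libraries, the mean level was highest for NPR1 (9.17 FPKM) and PR5 (9.10 FPKM). PAD4 (8.53), CBP60G (6.65), ICS1 (6.25), EDS5 (5.23) and EDS1 (4.42 FPKM) followed. PBS3 (0.709 FPKM) and PR2 (0.647 FPKM) were near the low end, and PR1 (0.00686 FPKM) was last. NPR1 and PR5 change places when CPM is divided by the gene length that the deposited values imply. The steadiest of the 9 tested genes within groups was NPR1, with a pooled SD of 0.11 log2 units between libraries of a group, and the least steady was PR2, at 1.08.

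**Figure D1:**
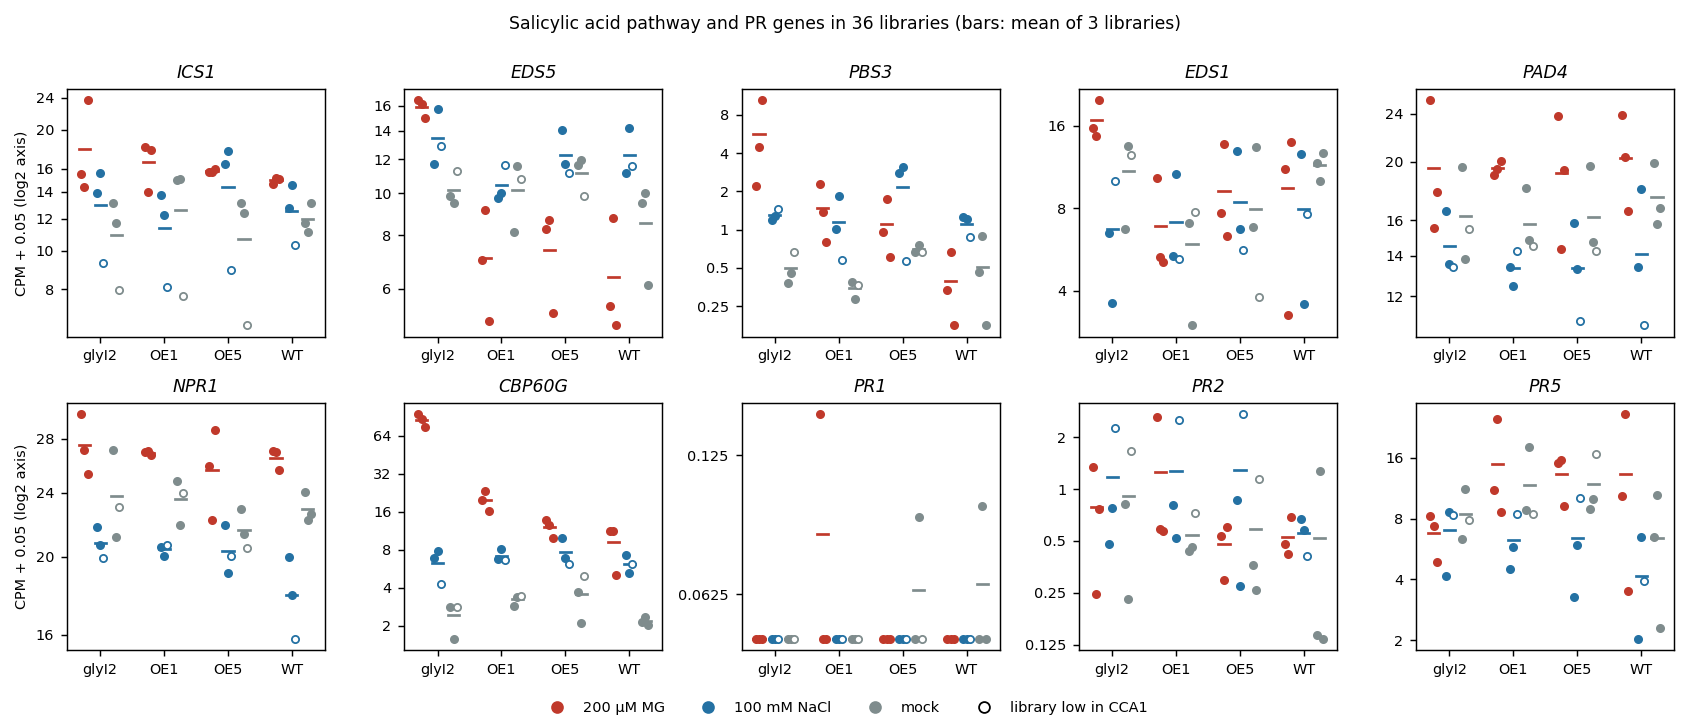
Level of each of the 10 genes in every library, in CPM plus 0.05 on a log2 axis, by genotype (glyI2, OE1, OE5, WT) and treatment (colour), with the mean of 3 libraries as a bar and open points for the 7 libraries low in CCA1. CBP60G stands at 85.7 CPM in glyI2 under MG, while PR1 lies at 0 in 33 of 36 libraries.

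The strongest response in the set was that of CBP60G, which rose after both treatments in all 4 genotypes and by far the most in glyI2 under MG. PBS3 rose under MG in glyI2 and OE1, and EDS5 rose under MG in glyI2. NPR1 stood higher under MG than under NaCl in 3 genotypes. ICS1, EDS1, PAD4, PR2 and PR5 passed the test in none of the 21 comparisons by edgeR's quasi-likelihood test, although ICS1, EDS1, PAD4 and PR5 each passed under some alternative given below. Every adjusted p for a gene is from that test, adjusted by Benjamini-Hochberg over all genes tested, unless DESeq2 is named, and a gene is called at an adjusted p under 0.05.

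In counts, MG against mock called 3 of the 9 in glyI2, where 29.2% of all genes tested were called. It called 2 of 9 in OE1 (9.79% of all genes), 1 of 9 in OE5 (8.82%) and 1 of 9 in WT (10.7%). NaCl against mock called 1 of 9, CBP60G, in each genotype, where 7.05% of all genes were called in glyI2, 5.33% in OE1, 5.48% in OE5 and 7.12% in WT. All these calls were rises. The median log2 fold change of the 9 under MG was 0.62 in glyI2 and 0.21 in WT, against -0.09 and 0.00 over all genes. The MG and NaCl comparisons of a genotype share its mock libraries.

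CBP60G, a calmodulin-binding transcription factor, had 2194, 2234 and 1878 reads in the glyI2 MG libraries, against 51, 34 and 72 in the glyI2 mock libraries. That is 85.7 ± 9.76 CPM under MG and 2.37 ± 0.73 CPM under mock. No library of one group came near the other. The log2 fold change was 5.18 ± 0.34 (SE, adjusted p = 1.74e-12), or 36.2-fold. In WT the MG libraries had 234, 182 and 117 reads, against 46, 49 and 47 in the mock libraries. Here too the groups did not overlap, and the log2 fold change was 2.09 ± 0.31 (adjusted p = 9.99e-06).

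The rise was seen in the OE lines as well, with no overlap between groups. CBP60G had 386, 439 and 280 reads in OE1 under MG, against 51, 57 and 86 under mock, a log2 fold change of 2.63 ± 0.31 (adjusted p = 2.43e-07). In OE5 it had 255, 301 and 176 reads under MG, against 70, 49 and 111 under mock, a log2 fold change of 1.76 ± 0.30 (adjusted p = 7.95e-05). The difference from the WT response was 0.54 ± 0.42 in OE1 and -0.33 ± 0.42 in OE5 (adjusted p = 1 for each), which does not show that the responses were equal.

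The difference itself was tested for glyI2. Its CBP60G response to MG exceeded that of WT by 3.09 ± 0.43 on the log2 scale (adjusted p = 3.67e-05), and the value stayed between 2.79 and 3.28 in the alternatives run. That comparison called 2 of the 9 genes, CBP60G and PBS3, where 3.97% of all genes were called.

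Salt raised CBP60G too, with a smaller estimate than MG in each genotype. It had 145, 138 and 121 reads in glyI2 under NaCl, against 51, 34 and 72 under mock, a log2 fold change of 1.40 ± 0.30 (adjusted p = 0.00345). In WT it had 185, 98 and 169 reads under NaCl, against 46, 49 and 47 under mock, a log2 fold change of 1.53 ± 0.30 (adjusted p = 0.00174). All NaCl libraries of these genotypes lay above their mock libraries. The rise was 1.15 ± 0.30 in OE1 (adjusted p = 0.0185) and 1.10 ± 0.30 in OE5 (adjusted p = 0.0223). In OE1 significance was lost without mock replicate 1 (adjusted p = 0.0915), mock replicate 2 (0.057) or NaCl replicate 2 (0.0843), and in OE5 without mock replicate 1 (0.0732), mock replicate 2 (0.141) or NaCl replicate 1 (0.178). With the compared groups fitted alone, the glyI2 call (adjusted p = 0.16) and the OE5 call (adjusted p = 0.258) were lost as well.

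Set directly against NaCl, MG left CBP60G higher in glyI2, by 3.78 ± 0.31 on the log2 scale (adjusted p = 2.23e-10), and in OE1, by 1.48 ± 0.29 (adjusted p = 0.000573). In WT the difference was 0.56 ± 0.29 (adjusted p = 0.241) and in OE5 0.66 ± 0.29 (adjusted p = 0.161).

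**Figure D2:**
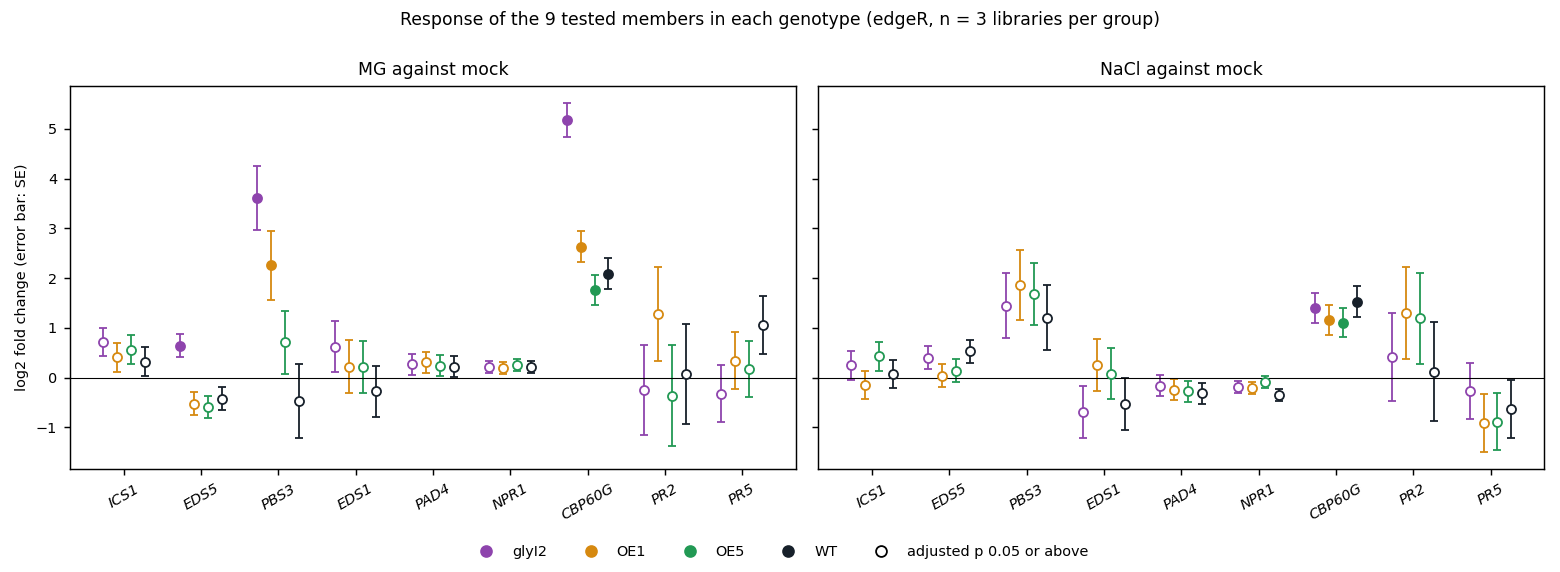
Log2 fold change (error bars: SE) of the 9 tested genes for MG against mock (left) and NaCl against mock (right), with 1 point per genotype and open points where the adjusted p is 0.05 or above. CBP60G is filled in all 8 comparisons and reaches 5.18 in glyI2 under MG, PBS3 reaches 3.61 there, and EDS5 is positive in glyI2 alone among the MG comparisons.

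MG also changed the seedlings' root markers, and those values stand beside every MG result. The summed level of CASP1, COBL9, EXPA7 and IRT1 was 5.82 to 15.7 CPM in glyI2 MG libraries, against 59.6 to 171 CPM in glyI2 mock libraries, and 10.4 to 12.0 CPM in WT MG libraries, against 64.7 to 127 CPM in WT mock libraries. All 4 markers were called lower under MG in glyI2 and in WT, and all but IRT1 in the OE lines. Under NaCl the sum was 29.1 to 52.8 CPM in glyI2 and 25.5 to 42.1 CPM in WT, below all their mock libraries. In OE1 it was 30.9 to 42.1 CPM, against 65.2 to 136 CPM under mock. In OE5 it was 29.5 to 51.1 CPM, overlapping with 44.7 to 140 CPM under mock. Called lower under NaCl were 2 of the 4 markers in glyI2, 1 in WT and 0 in OE1 and OE5. The part of these values in the MG and NaCl results was not tested. In whole seedlings, fewer cells of a type and less RNA per cell cannot be told apart.

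Among the synthesis genes, PBS3, which makes the isochorismate-glutamate conjugate, changed most. It had 50, 114 and 259 reads in glyI2 under MG, 24, 22 and 40 under NaCl, and 6, 9 and 16 under mock. The MG libraries differed widely among themselves, but all lay above every NaCl and mock library of glyI2. The log2 fold change under MG against mock was 3.61 ± 0.64 (adjusted p = 7.28e-05), or 12.2-fold. Leaving out glyI2 MG replicate 3, the highest library, gave 2.88 (adjusted p = 0.00111).

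In WT, PBS3 had 6, 10 and 3 reads under MG, against 9, 18 and 3 under mock, so these groups overlapped. The log2 fold change was -0.48 ± 0.75 (adjusted p = 0.882). The glyI2 response to MG exceeded the WT response by 4.09 ± 0.98 on the log2 scale (adjusted p = 0.0135). Without WT mock replicate 2, the highest of the WT mock libraries, the difference was 3.33 (adjusted p = 0.0959), and without glyI2 MG replicate 3 it was 3.37 (adjusted p = 0.0482).

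OE1 had 43, 25 and 13 PBS3 reads under MG, against 6, 4 and 8 under mock, a log2 fold change of 2.26 ± 0.70 (adjusted p = 0.0345). This call did not hold without the libraries low in CCA1 (adjusted p = 0.0776), nor without mock replicate 1 (0.0792), 2 (0.12) or 3 (0.108), nor without MG replicate 1 (0.197) or 2 (0.0627). OE5 had 17, 41 and 10 reads under MG, against 12, 17 and 14 under mock, and the groups overlapped (0.71 ± 0.63, adjusted p = 0.684). Under NaCl the PBS3 estimates were 1.45 ± 0.65 in glyI2, 1.86 ± 0.70 in OE1 and 1.68 ± 0.62 in OE5, and WT had 31, 22 and 23 reads under NaCl, against 9, 18 and 3 under mock. Adjusted p ran from 0.12 to 0.325 in the 4 genotypes. In OE5, PBS3 passed without NaCl replicate 3, a library low in CCA1 (2.15, adjusted p = 0.026). Under MG against NaCl, PBS3 was higher in glyI2 by 2.17 ± 0.58 (adjusted p = 0.00514), a call lost without MG replicate 3 (1.42, adjusted p = 0.0813).

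EDS5, the isochorismate transporter, rose under MG in glyI2 and did not pass elsewhere. It had 381, 413 and 373 reads in glyI2 under MG, against 179, 211 and 290 under mock, and every MG library was above every mock library. The log2 fold change was 0.64 ± 0.23 (adjusted p = 0.0337), a call lost without mock replicate 1 (0.0843) or 2 (0.0984) or without MG replicate 1 (0.0808) or 2 (0.0669). The other genotypes gave negative estimates that did not pass, -0.53 ± 0.23 in OE1 (adjusted p = 0.193), -0.59 ± 0.23 in OE5 (0.129) and -0.43 ± 0.23 in WT (0.362). The difference between the glyI2 and WT responses was 1.07 ± 0.32 (adjusted p = 0.0602). With DESeq2 it was 1.11 (adjusted p = 0.0212), and it passed also without WT mock replicate 3 (1.26, adjusted p = 0.0325) and without WT MG replicate 2 (1.36, adjusted p = 0.0171). The replicate block aside, it did not pass in the other settings.

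EDS5 was lower under MG than under NaCl in WT, with 114, 141 and 115 reads under MG, against 287, 268 and 319 under NaCl. These groups did not overlap, and the log2 fold change was -0.96 ± 0.23 (adjusted p = 0.00503). It was lost without WT MG replicate 3 (-0.80, adjusted p = 0.0508) and when the compared groups were fitted alone (-0.97, adjusted p = 0.101). OE5 gave -0.73 ± 0.23 (adjusted p = 0.0366), lost without NaCl replicate 1 (0.141) or 2 (0.06), without MG replicate 1 (0.06) or 3 (0.246), and with the compared groups alone (0.159). In OE1 the estimate was -0.57 ± 0.23 (adjusted p = 0.113), and it passed without MG replicate 2 (-0.80, adjusted p = 0.045). In glyI2 it was 0.24 ± 0.23 (adjusted p = 0.444). Under NaCl against mock the EDS5 estimates were 0.40 in glyI2, 0.04 in OE1, 0.14 in OE5 and 0.53 in WT (SE 0.23 each). None passed (lowest adjusted p = 0.183, in WT). In glyI2 and WT every NaCl library lay above every mock library in CPM.

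ICS1, which commits chorismate to this route, had 359, 367 and 589 reads in glyI2 under MG, against 239, 261 and 204 under mock. The groups did not overlap, at 17.8 ± 5.05 and 10.9 ± 2.67 CPM. The log2 fold change of 0.71 ± 0.29 fell short of the threshold (adjusted p = 0.0623). With the replicate number as a block, fitted over all 12 groups, not all of which pair by number, it was 0.77 (adjusted p = 0.0213). Without all 7 libraries low in CCA1 it was 0.57 (adjusted p = 0.0193). It did not pass in the other settings, being 0.52 (adjusted p = 0.26) without mock replicate 3, the library of this comparison that is low in CCA1, and 0.48 (adjusted p = 0.298) without MG replicate 3. In WT, ICS1 had 307, 245 and 353 reads under MG, against 255, 234 and 310 under mock (0.32 ± 0.29, adjusted p = 0.711), groups that overlapped in reads but not in CPM. OE1 gave 0.41 ± 0.29 and OE5 0.56 ± 0.29 (adjusted p = 0.53 and 0.326).

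The libraries low in CCA1 touch ICS1 and PR2 most. In all 7, ICS1 was lower than in both other libraries of the group, by 0.40 to 0.97 on the log2 scale. In OE5 mock seedlings, for example, ICS1 stood at 6.47 CPM in that library, against 12.4 and 13.1 CPM in the other 2. PR2 was higher than in both other libraries in 6 of 7, with a median difference of 1.83, the exception being WT NaCl. No MG library was among the 7. Every NaCl group, and every mock group but that of WT, holds 1 of them. The part of CCA1 in these results was not tested beyond leaving out the 7 libraries.

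**Figure D3:**
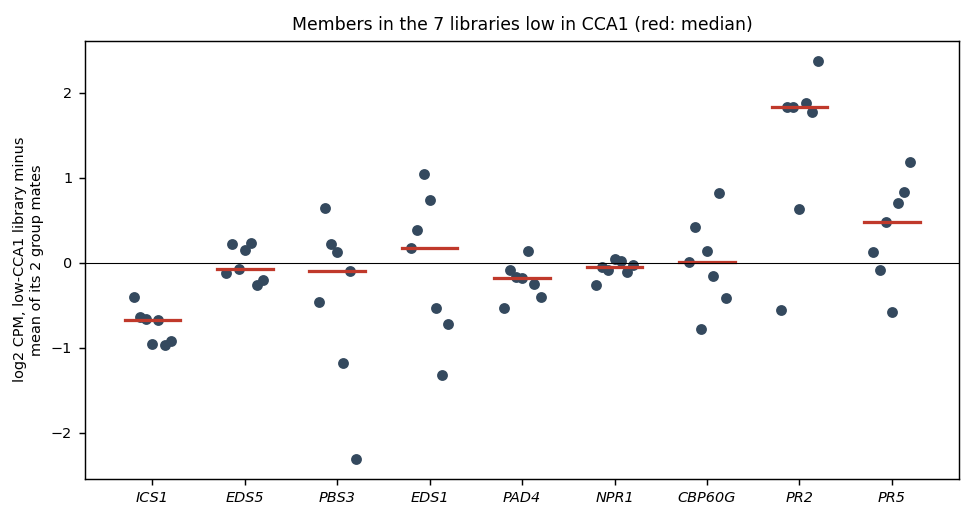
Difference in log2 CPM between each of the 7 libraries low in CCA1 and the mean of the other 2 libraries of its group, for the 9 tested genes, with the median in red. ICS1 lies below 0 in all 7, with a median of -0.67, and PR2 above 0 in 6 of 7, with a median of 1.83.

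EDS1, a lipase-like immune regulator, varied more between libraries of a group (pooled SD 0.69 in log2 units) than between group means (SD 0.45). It had 234, 52 and 327 reads in WT under MG, 325, 67 and 210 under NaCl, and 254, 213 and 301 under mock. In glyI2 it had 365, 375 and 494 reads under MG, 136, 64 and 287 under NaCl, and 122, 302 and 322 under mock. Under MG the glyI2 libraries were the 3 highest of all 36 in CPM, yet MG against mock gave only 0.62 ± 0.51 (adjusted p = 0.399). MG against NaCl in glyI2 gave 1.32 ± 0.52 (adjusted p = 0.055). That value passed with RLE scaling (1.33, adjusted p = 0.0468), with DESeq2 (1.33, adjusted p = 0.0308) and with the compared groups alone (adjusted p = 0.0278). It passed also without the libraries low in CCA1 (1.73, adjusted p = 0.027) and without NaCl replicate 3 (adjusted p = 0.0269). It did not pass with the replicate block, without the expression filter or without any other single library.

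The libraries also differed in how levels related to gene length. Each library's deviation from the gene means was correlated with gene length (Spearman, across 20748 genes, which are not independent replicates). WT MG replicate 2, with 52 EDS1 reads, had a correlation of -0.29, and WT MG replicate 3, with 327 reads, one of 0.22. WT NaCl replicate 2, with 67 reads, stood at -0.27, and WT NaCl replicate 1, with 325 reads, at 0.31. Negative values mark libraries in which long transcripts were relatively low. The libraries did not fall in the same order by EDS1 level and by this correlation. OE1 mock replicate 2, with 50 reads the lowest of all, had -0.07, and OE1 mock replicate 1, the most negative at -0.31, had 126 reads. A correlation of -0.07 was also that of glyI2 MG replicate 1, with 365 reads. The part of this property in the EDS1 values was not tested. EDS1 also lies next to a near-identical copy, EDS1B (AT3G48080), at 0.47 to 1.26 CPM in group means, and reads of the pair could have been split in counting, so the EDS1 counts are uncertain.

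**Figure D4:**
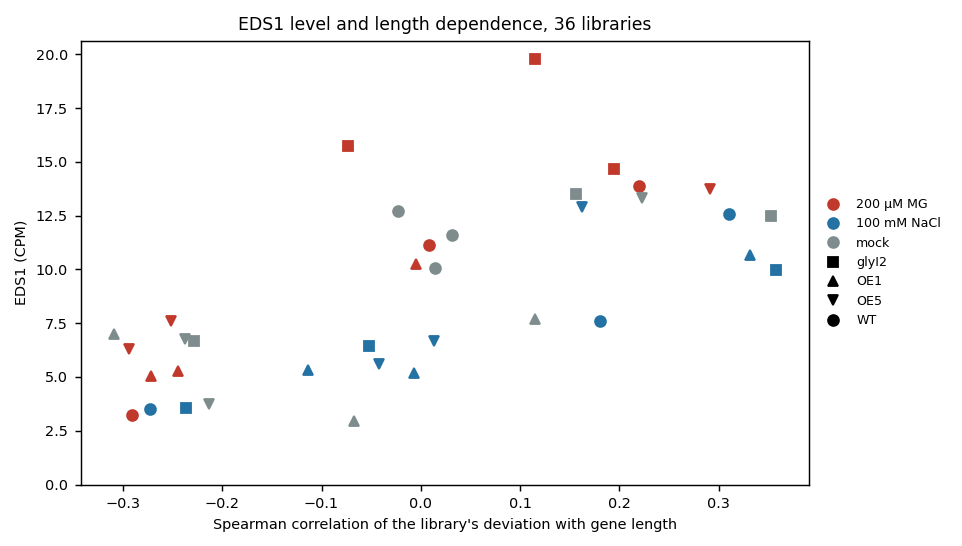
EDS1 level (CPM, y axis) against the Spearman correlation of each library's deviation with gene length (x axis), for 36 libraries coloured by treatment and shaped by genotype. The 3 glyI2 MG libraries, at 14.7 to 19.8 CPM, are the highest, and the libraries under 4 CPM all have a correlation below 0.

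PAD4, the partner of EDS1, stayed within a narrow range of 10.7 to 25.2 CPM across all libraries. Its estimates were positive under MG and negative under NaCl in every genotype, at 0.21 to 0.30 and -0.32 to -0.17 on the log2 scale, and 0 of 8 passed (lowest adjusted p = 0.385). Under MG against NaCl the estimates were 0.43 ± 0.21 in glyI2, 0.55 ± 0.21 in OE1, 0.52 ± 0.21 in OE5 and 0.53 ± 0.21 in WT, with adjusted p from 0.0975 to 0.132. In WT it had 502, 329 and 389 reads under MG, against 345, 341 and 296 under NaCl. With the replicate block, fitted over all 12 groups, the WT value was 0.51 (adjusted p = 0.0388). The WT value passed also without WT NaCl replicate 2 (0.75, adjusted p = 0.0345) and did not pass in the other settings. In OE5 PAD4 passed without MG replicate 2 (0.69, adjusted p = 0.0488).

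NPR1, the salicylic acid receptor, was the most even of the regulators, and its differences were small. WT had 568, 435 and 602 reads under MG, against 514, 339 and 436 under NaCl, which after scaling is 26.5 ± 0.81 and 17.8 ± 2.08 CPM without overlap. The log2 fold change was 0.57 ± 0.12 (adjusted p = 0.00127). In glyI2 NPR1 averaged 27.4 ± 2.39 CPM under MG and 20.7 ± 0.91 CPM under NaCl (0.40 ± 0.12, adjusted p = 0.0102), a call lost without MG replicate 1 (adjusted p = 0.061). OE1 averaged 26.9 ± 0.13 CPM under MG and 20.4 ± 0.34 CPM under NaCl (0.40 ± 0.12, adjusted p = 0.0242), a call lost when any 1 of the 6 libraries was left out (adjusted p = 0.0594 to 0.0796), without the libraries low in CCA1 (0.0807) and without the expression filter (0.0527). OE5 gave 0.33 ± 0.12 (adjusted p = 0.0764) and passed without MG replicate 2 (0.43, adjusted p = 0.032). Fitted alone, the compared groups gave no call in WT (adjusted p = 0.139), glyI2 (0.12) or OE1 (0.115).

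Neither treatment passed for NPR1 against mock. The estimates under MG were 0.19 to 0.25 and those under NaCl -0.36 to -0.09, the largest in size being that of WT under NaCl (-0.36 ± 0.12, adjusted p = 0.0667). That value passed without WT NaCl replicate 1 (-0.45, adjusted p = 0.0461).

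In all, MG against NaCl called 3 of 9 genes in glyI2, where 31.3% of all genes were called. The calls were CBP60G, PBS3 and NPR1, all higher. It called 2 of 9 in OE1 (12.6% of all genes), both higher, 1 of 9 in OE5 (10.3%), lower, and 2 of 9 in WT (11.7%), NPR1 higher and EDS5 lower. In WT the count was 4 with the replicate block, which added PAD4 and PR5.

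The PR genes, the usual read-outs of salicylic acid signalling, gave no call. PR1 was next to absent. It had 4 reads in all, 2 in OE1 MG replicate 1, 1 in OE5 mock replicate 2 and 1 in WT mock replicate 2, and 33 libraries had 0. A count of 0 allows a level of up to 3 counts of the library total, 0.134 to 0.143 CPM, counting error only. PR1 is therefore not detectable at this depth in these libraries, and no fold change is given.

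PR2, a secreted glucanase, had 2 to 68 reads per library. In glyI2 it had 30, 5 and 18 reads under MG, against 14, 4 and 42 under mock, and in WT 9, 6 and 15 under MG, against 2, 26 and 2 under mock. All these groups overlapped. Its estimates against mock ran from -0.37 to 1.30 with SE of 0.88 to 1.01, and adjusted p was 0.544 or more, so changes of that size were not detectable here. The 3 highest PR2 counts of NaCl libraries, 61 in OE1, 64 in glyI2 and 68 in OE5, were all in libraries low in CCA1.

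PR5, a thaumatin-like protein, had 216, 425 and 81 reads in WT under MG, 51, 122 and 108 under NaCl, and 141, 221 and 53 under mock. The MG libraries overlapped with both other groups. MG against mock gave 1.06 ± 0.58 in WT (adjusted p = 0.361) and -0.32 ± 0.57 in glyI2 (adjusted p = 0.718). MG against NaCl in WT gave 1.70 ± 0.59 (adjusted p = 0.059), 1.63 with the replicate block (adjusted p = 0.0296) and 1.69 with DESeq2 (adjusted p = 0.028). It passed also without WT MG replicate 3 (2.16, adjusted p = 0.0141) and without WT NaCl replicate 2 (2.17, adjusted p = 0.0392). It did not pass in the other settings. In glyI2 the same comparison gave -0.05 ± 0.57 (adjusted p = 0.958).

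Without treatment no difference between a line and WT was called for any of the 9 genes by edgeR, which does not show that levels were equal. The share of all genes called was 0.0434% in glyI2, 0.053% in OE1 and 0.0386% in OE5. Unadjusted p fell under 0.05 for 0 of the 9 in glyI2, none in OE1, and in OE5 1, CBP60G, and DESeq2 called 0 in each line. CBP60G averaged 3.52 ± 1.42 CPM in OE5 mock seedlings and 2.13 ± 0.17 CPM in WT mock seedlings (0.72 ± 0.31, adjusted p = 0.963).

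No difference between the NaCl response of a line and that of WT was called for any of the 9 genes. This does not show that the responses were equal, as the SE of a difference reached 1.37 (PR2 in OE1). The share of all genes called by edgeR was 0% for glyI2, OE1 and OE5 alike, unadjusted p was under 0.05 for 0 of 9 in each, and DESeq2 called 0 of 9 in each. The MG responses of OE1 and OE5 likewise gave 0 calls of 9, where 0.00482% of all genes were called in each. That share is 1 gene in each line, and the gene was GLYI2 or GLYII4. Unadjusted p was under 0.05 for 1 of 9 in OE1, PBS3 (2.74 ± 1.02, adjusted p = 1), and for 0 in OE5, and DESeq2 called 0 in each.

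Another 50 genes of the pathway, in 6 lists (synthesis, turnover, regulators, NPR and TGA, response, PR relatives), place the 10 in context, and 46 of them were tested. The untested 4 were BSMT1, WRKY38, WRKY62 and BG1. Under MG against mock, 17 rose and 6 fell in glyI2 (29.2% of all genes called), 3 rose and 1 fell in OE1 (9.79%), 2 rose and 1 fell in OE5 (8.82%), and 5 rose and 1 fell in WT (10.7%). The OE counts are near or under the share over all genes. Under NaCl, 8 rose and 1 fell in glyI2 (7.05% of all genes called), 2 rose and 0 fell in OE1 (5.33%), 7 rose and 1 fell in OE5 (5.48%), and 7 rose and 1 fell in WT (7.12%). The NaCl counts changed when single libraries were left out. The fewest called with 1 library left out was 4 in glyI2 (without mock replicate 2 or NaCl replicate 2), 1 in OE1 (without mock replicate 1), 3 in OE5 (without mock replicate 2) and 5 in WT (without any 1 mock library or NaCl replicate 3). Their median log2 fold change under MG was 0.42 in glyI2 and 0.19 in WT.

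In glyI2 under MG, where 29.2% of all genes were called in either direction, the rises lay in 4 of the 6 lists. They took in 5 of 9 regulators, 5 of 12 NPR and TGA genes, 5 of 7 response genes and 2 of 7 synthesis genes, with 0 of 6 turnover genes and 0 of 5 PR relatives. SARD1 (AT1G73805), the partner of CBP60G, had 166, 176 and 176 reads in glyI2 MG libraries, against 11, 25 and 32 in glyI2 mock libraries. The groups lay far apart, with a log2 fold change of 2.81 ± 0.41 (adjusted p = 4.53e-06). In WT, SARD1 had 20, 24 and 14 reads under MG, against 15, 24 and 10 under mock (0.42 ± 0.44, adjusted p = 0.783). The response of glyI2 exceeded that of WT by 2.39 ± 0.60 (adjusted p = 0.018), which was lost without WT mock replicate 2 (0.0904), WT MG replicate 3 (0.052) or glyI2 mock replicate 1 (0.0561).

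GRX480 (AT1G28480), a glutaredoxin that binds TGA factors, rose under MG in every genotype. It had 3948, 3678 and 3732 reads in glyI2 under MG, against 38, 48 and 23 under mock, a log2 fold change of 6.51 ± 0.52 (adjusted p = 9.19e-11). WT had 376, 334 and 441 reads under MG, against 37, 46 and 38 under mock, a log2 fold change of 3.39 ± 0.46 (adjusted p = 3.32e-06). All MG libraries were above all mock libraries. The response of glyI2 exceeded that of WT by 3.13 ± 0.63 (adjusted p = 0.00306). The rise was 4.45 ± 0.49 in OE1 (adjusted p = 1.06e-07) and 3.86 ± 0.48 in OE5 (adjusted p = 7.56e-07).

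ALD1 (AT2G13810), which starts the synthesis of the immune signal pipecolic acid, had 20, 16 and 21 reads in glyI2 under MG, against 1, 0 and 0 under mock (adjusted p = 0.000144). NIMIN1 (AT1G02450), which binds NPR1, had 35, 22 and 30 reads in glyI2 under MG, against 0, 3 and 0 under mock (adjusted p = 0.000302). Both were near the detection limit in WT, where ALD1 had 0, 1 and 1 reads under MG and NIMIN1 had 0, 5 and 1. The differences from the WT response did not pass, with adjusted p = 0.2 for ALD1 and 0.162 for NIMIN1. The immune receptor helpers ADR1 and ADR1-L2 rose in glyI2 by 1.29 ± 0.24 and 1.54 ± 0.24 (adjusted p = 0.00012 and 1.2e-05) and in WT by 0.86 ± 0.24 and 1.04 ± 0.24 (adjusted p = 0.0148 and 0.00266). Without WT mock replicate 1 the WT value of ADR1 under MG was 0.79 (adjusted p = 0.0825). ADR1 rose also under NaCl in WT, by 0.98 ± 0.24 (adjusted p = 0.00953). That call was lost without mock replicate 1 (0.0603) or NaCl replicate 3 (0.0619).

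**Figure D5:**
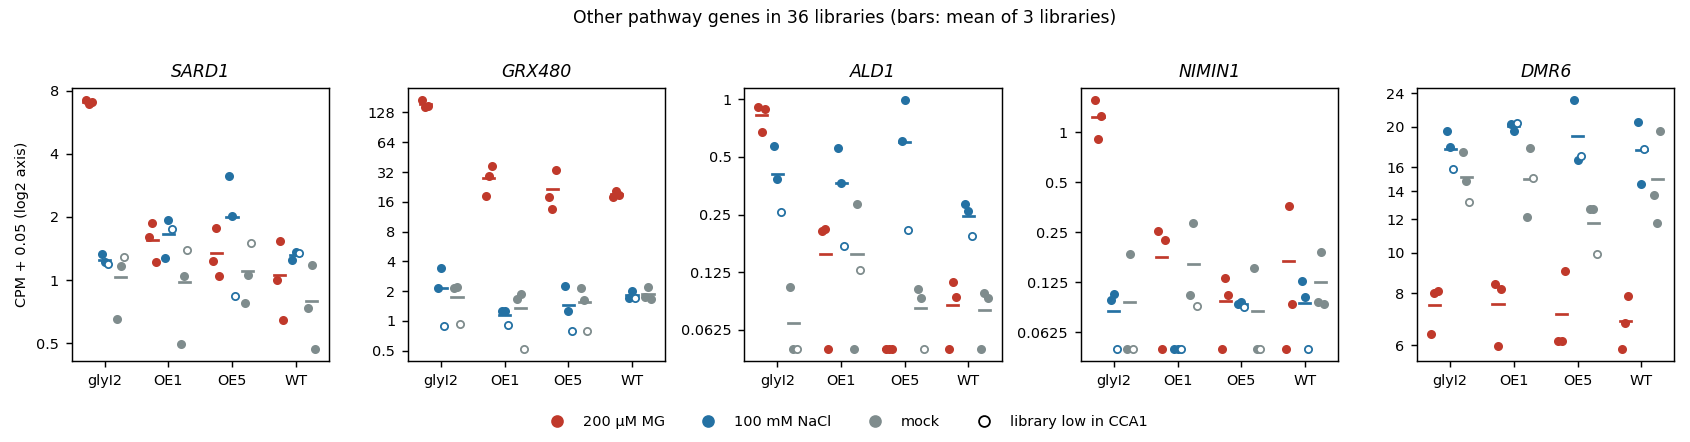
Levels of SARD1, GRX480, ALD1, NIMIN1 and DMR6 in every library, in CPM plus 0.05 on a log2 axis, by genotype and treatment, with the mean of 3 libraries as a bar and open points for libraries low in CCA1. In glyI2 under MG, GRX480 averages 154 CPM and SARD1 7.03 CPM, and DMR6 lies lower under MG than under NaCl in all 4 genotypes.

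Of the 6 turnover genes tested, whose products modify or remove salicylic acid, MG against mock raised 0 and lowered 1 in glyI2, raised 2 and lowered 1 in OE1, and raised 1 and lowered 1 in OE5 and in WT. DMR6 (AT5G24530), a salicylic acid hydroxylase, had 123, 109 and 184 reads in WT under MG, against 299, 248 and 461 under mock, a log2 fold change of -1.14 ± 0.21 (adjusted p = 0.000225). It fell under MG also in OE1, with 162, 111 and 140 reads under MG, against 217, 301 and 380 under mock (adjusted p = 0.00112), and in OE5 (-0.73 ± 0.21, adjusted p = 0.0221). The OE5 call was lost with the compared groups alone (0.164) and without mock replicate 1 (0.0828) or 2 (0.0833) or MG replicate 1 (0.133) or 2 (0.118). In glyI2 it was 1 of the 6 genes that fell (-1.01 ± 0.21, adjusted p = 0.000394). UGT76B1 (AT3G11340), a glycosyltransferase acting on salicylic acid and related signals, rose under MG in WT by 1.60 ± 0.23 (adjusted p = 7.3e-06), in OE1 by 1.53 ± 0.23 (1.34e-05) and in OE5 by 1.44 ± 0.23 (3.75e-05). In glyI2 it had 865, 621 and 784 reads under MG, against 525, 419 and 550 under mock (0.44 ± 0.23, adjusted p = 0.154), and its response was below that of WT by a log2 difference of -1.16 ± 0.32 (adjusted p = 0.0337).

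Under MG against mock, 0 of the 5 PR relatives tested were called in OE1 (9.79% of all genes), OE5 (8.82%) or WT (10.7%). The difference in MG response between glyI2 and WT was called for 0 of 5 (3.97% of all genes). In glyI2 under MG against mock, 4 of the 5 fell, where 29.2% of all genes were called. They were PRB1 (-2.14 ± 0.79), the chitinase PR3 (-2.27 ± 0.49), PR4 (-1.15 ± 0.42) and the thaumatin-like TLP-3 (-2.00 ± 0.50), with adjusted p of 0.0413, 0.000716, 0.0379 and 0.00275, named for this comparison after their values were seen, as was DMR6 in glyI2. TLP-3 (AT1G75030) is the neighbour of PR5 and rose under NaCl in every genotype, by 2.93 ± 0.48 in glyI2, 2.09 ± 0.46 in OE1, 2.70 ± 0.47 in OE5 and 2.49 ± 0.47 in WT (adjusted p of 0.00585 or less). With the compared groups alone the glyI2 call was lost (adjusted p = 0.0976). In WT it had 529, 1046 and 404 reads under NaCl, against 101, 114 and 142 under mock. PR5 had lower mean levels under NaCl than under mock in all 4 genotypes, none of which passed.

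SARD4 (AT5G52810), a reductase of pipecolic acid synthesis, rose under NaCl by 1.74 ± 0.28 in glyI2, 1.24 ± 0.28 in OE1, 1.22 ± 0.28 in OE5 and 1.69 ± 0.28 in WT (adjusted p of 0.00728 or less). The OE1 call was lost without mock replicate 1 (0.0518), and the OE5 call without mock replicate 2 (0.0582) or NaCl replicate 2 (0.0536) and with the compared groups alone (0.108). ALD1, of the same pathway, had 13, 21 and 4 reads in OE5 under NaCl, against 1, 1 and 0 under mock (adjusted p = 0.00845), a call lost without mock replicate 3 (0.0511) or NaCl replicate 2 (0.0512). In glyI2 ALD1 had 11, 6 and 6 reads under NaCl, against 1, 0 and 0 under mock (adjusted p = 0.0165, named after its value was seen), and it did not pass in OE1 (0.338) or WT (0.163).

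FMO1 (AT1G19250), which turns pipecolic acid into its active form, rose under NaCl in OE5 (2.93 ± 0.66, adjusted p = 0.0065) and WT (2.84 ± 0.68, adjusted p = 0.00797), and did not pass in glyI2 (0.153) or OE1 (0.627). The OE5 call was lost with the compared groups alone (0.103) and without NaCl replicate 2 (2.03, adjusted p = 0.0836). The WT call was lost without the libraries low in CCA1 (0.0624) and without mock replicate 2 (0.0524), mock replicate 3 (0.0711) or NaCl replicate 3 (0.0611).

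ICS2 (AT1G18870), the second isochorismate synthase, had 280, 375 and 354 reads in WT under NaCl, against 86, 83 and 51 under mock. The groups did not overlap, and the log2 fold change was 2.12 ± 0.50 (adjusted p = 0.00738). It did not pass once WT mock replicate 3 was left out (0.0643). ICS2 rose under NaCl also in glyI2 (2.02 ± 0.49, adjusted p = 0.00959) and OE5 (1.81 ± 0.49, adjusted p = 0.0246). The glyI2 call was lost without the libraries low in CCA1 (0.053), with the compared groups alone (0.0629) and without mock replicate 1 (0.0574) or NaCl replicate 2 (0.0663). The OE5 call was lost without the libraries low in CCA1 (0.0543) and without mock replicate 1 (0.106), 2 (0.0841) or 3 (0.06) or NaCl replicate 1 (0.154). Under MG, ICS2 rose in WT (1.84 ± 0.50, adjusted p = 0.0119) and, named after its value was seen, in glyI2 (1.33 ± 0.49, adjusted p = 0.0393). The WT value was 0.99 (adjusted p = 0.306) without MG replicate 2, and the call was lost also without mock replicate 3 (0.087) and with the compared groups alone (0.0958). ICS1 under NaCl gave 0.24 ± 0.29 in glyI2, -0.15 ± 0.29 in OE1, 0.43 ± 0.29 in OE5 and 0.07 ± 0.29 in WT.

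WRKY54 fell under NaCl in glyI2 (-2.79 ± 0.62, adjusted p = 0.00406), OE5 (-1.96 ± 0.55, adjusted p = 0.0327) and, named after its value was seen, WT (-2.00 ± 0.55, adjusted p = 0.0243). The glyI2 call was lost without the libraries low in CCA1 (0.0611) and with the compared groups alone (0.152). The OE5 call was lost in both of these settings (0.136 and 0.156) and when any 1 of the 6 libraries but mock replicate 3 was left out (0.0526 to 0.121).

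MG against NaCl gave 15 higher and 8 lower of the 46 in glyI2 (31.3% of all genes called), 5 higher and 4 lower in OE1 (12.6%), 3 higher and 5 lower in OE5 (10.3%), and 2 higher and 4 lower in WT (11.7%), where the count is about the share over all genes. The OE1 count was 5 without NaCl replicate 3 or MG replicate 3. DMR6 was lower under MG in each genotype, by -1.24 ± 0.21 in glyI2, -1.42 ± 0.21 in OE1, -1.42 ± 0.21 in OE5 and -1.37 ± 0.21 in WT. DLO1 (AT4G10500), another salicylic acid hydroxylase, had 6, 2 and 0 reads in WT under MG, against 33, 16 and 33 under NaCl (adjusted p = 0.00977). DLO1 was lower under MG also in OE1 (adjusted p = 0.0104), OE5 (0.00342) and, named after its value was seen, glyI2 (adjusted p = 0.000234). The WT call was lost without MG replicate 3 (0.0708) and with the compared groups alone (0.0561), and the OE1 call without MG replicate 3 (0.0731).

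The members' patterns over the 12 group means were compared as a description. These means share libraries and scaling. CBP60G ran closest to ICS1 (Pearson r = 0.85 over 12 group means) and PBS3 (r = 0.81), and over the 36 libraries the same pairs had r of 0.50 and 0.71. PAD4 ran with NPR1 (0.92 over group means, 0.80 over libraries). EDS1 and PAD4 had r of 0.43 over group means and 0.07 over libraries. Of 16541 genes above a set level, those most like CBP60G were the hexose transporter gene MSS1 (AT5G26340, r = 0.99), AT3G59640 (0.99) and CAD1 (AT1G29690, 0.99). ICS1 was most like AT1G25370 (0.96), AT3G19520 (0.95) and CDPK1 (0.95), and PBS3 most like AT2G24600 (0.94), WAKL2 (0.93) and AT3G46280 (0.93). EDS5 was most like EMB2762 (0.93), EDS1 most like AT1G19990 (0.98), PAD4 most like the FHY1 of locus AT1G79790 (0.99), NPR1 most like GLP9 (0.97), PR2 most like AT3G62820 (0.92) and PR5 most like PMSR2 (0.95).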

How the data were processed

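Counts per gene and FPKM values of 36 libraries were used as deposited by the authors. Per the submitters' processing notes, HISAT2 2.0.4, HTSeq and the TAIR10 build were used. No source used here says whether strand was used in counting, so a gene overlapping another has uncertain values. All 279 chloroplast and mitochondrial genes were at 0.

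Counts were tested with edgeR 4.0.16 in R 4.3.3 (TMM, filterByExpr, robust quasi-likelihood F test, all 36 libraries, 12 groups, no block), with Benjamini-Hochberg adjustment over 20748 genes. SE is the absolute log2 fold change over the square root of F. CPM is TMM-scaled. The code was tested on simulated data. DESeq2 1.42.0 and other settings were alternatives. The authors' FPKM served for levels between genes. Within a group no library appears to be a repeat of another, since libraries of a group differed by a chi-square of 14.9 or more per gene. Libraries of different groups were not compared in this way.

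Same-numbered libraries were compared by the correlation of their deviations from group means, over 198 pairs (-0.60 to 0.81, median 0.18). Every pair exceeded 0.1 in 4 of 15 comparisons (MG against mock in glyI2 and OE5, NaCl against mock in OE5, MG against NaCl in WT), where the block is given beside a result whose call it changes. The block was fitted over all 36 libraries, with replicate effects shared by the 12 groups. Pairing within a comparison therefore does not settle whether the block holds.

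The members and lists were chosen with earlier results of these data known. All 10 genes were named, with at most 6 called genes of the other lists per comparison by adjusted p, and the 3 genes most like each tested member by Pearson r over group means.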

Additional observations from a re-analysis of the deposited data

Results flagged for a closer look

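The response to MG differed between glyI2 and WT, by the test of the difference itself (edgeR, n = 3 libraries per group), for 5 of the pathway genes, 2 of 9 members and 3 of 46 others, where 3.97% of all genes were called. PBS3 exceeded the WT response by 4.09 ± 0.98 on the log2 scale (adjusted p = 0.0135), with 50, 114 and 259 reads in glyI2 under MG and 6, 10 and 3 in WT under MG, and its call was lost without WT mock replicate 2 (0.0959). CBP60G exceeded it by 3.09 ± 0.43 (adjusted p = 3.67e-05), GRX480 by 3.13 ± 0.63 (adjusted p = 0.00306) and SARD1 by 2.39 ± 0.60 (adjusted p = 0.018), the last lost without WT mock replicate 2 (0.0904), WT MG replicate 3 (0.052) or glyI2 mock replicate 1 (0.0561). UGT76B1 went the other way, at -1.16 ± 0.32 (adjusted p = 0.0337), and lost its call with RLE scaling (adjusted p = 0.0517), with the compared groups alone (0.0879) and without any 1 of 7 single libraries (0.0553 to 0.138). Root marker levels were low under MG in both genotypes, at 5.82 to 15.7 CPM in glyI2 and 10.4 to 12.0 CPM in WT. Their part in these differences was not tested.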

How the results depend on the processing

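The alternatives were run on 255 values, those of the 9 tested members in all comparisons and of other genes in the comparisons where the set rule named them. Runs that left out a single library covered only the comparisons holding that library. No value called in the main run changed direction. A change of sign in a value that was not called was not recorded. The other printed values were not rerun, among them those of genes named after being seen and of GLYI2 and GLYII4. Members called changed with the replicate block in NaCl against mock in WT (2, from 1) and, for MG against NaCl, in OE1 (4, from 2), OE5 (3, from 1) and WT (4, from 2). In comparisons whose numbers do not pair the libraries, the block added NPR1 under NaCl in WT (-0.36, adjusted p = 0.0214), EDS5 (-0.60, 0.0394) and PAD4 (0.55, 0.0258) in OE1 and PAD4 (0.52, 0.0408) and NPR1 (0.33, 0.0283) in OE5 for MG against NaCl, and EDS5 for the difference in MG response between glyI2 and WT (1.06, 0.0211). It changed no other call of a member beyond those given in the text. With the compared groups alone, members called were 0 (from 1) under NaCl in glyI2 and in OE5, and for MG against NaCl 1 (from 2) in OE1, 0 (from 1) in OE5 and 0 (from 2) in WT. With the low-CCA1 libraries left out, OE1 had 1 member called (from 2) for MG against mock and 1 (from 2) for MG against NaCl, and without an expression filter 1 for MG against NaCl. Leaving out single libraries gave 2 to 3 (glyI2), 1 to 2 (OE1) members under MG, 0 to 1 (OE1), 0 to 2 (OE5) and 1 to 2 (WT) under NaCl, and for MG against NaCl 2 to 4 (glyI2), 1 to 2 (OE1), 0 to 3 (OE5) and 2 to 4 (WT). The difference in MG response between glyI2 and WT held 1 to 3. The cause was not tested.

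Over all genes, the block gave 2224 (from 1462) in glyI2, 1786 (from 1105) in OE1, 1812 (from 1136) in OE5 and 2300 (from 1478) in WT under NaCl, and 1447 (from 823) for the glyI2 difference in MG response. The compared groups alone gave 216, 500 and 293 in glyI2, OE1 and OE5 under NaCl, 1139 (from 1831) in OE5 under MG, 1010 (from 2140) in OE5 and 1188 (from 2430) in WT for MG against NaCl, 5 (from 9), 3 (from 11) and 1 (from 8) in glyI2, OE1 and OE5 against WT under mock, and 0 (from 1) for the OE5 difference in MG response. Without the libraries low in CCA1, OE5 against WT under mock gave 5 (from 8). DESeq2 called 2 genes for the glyI2 and 1 for the OE1 difference in NaCl response, against 0. Of the other pathway genes, the compared groups alone called 1 (from 9) in glyI2 and 2 (from 8) in OE5 under NaCl, and 5 (from 8) in OE5 and 3 (from 6) in WT for MG against NaCl. The block called 4 (from 2) in OE1 under NaCl, 7 (from 4) in OE1 under MG, 13 (from 8) in OE5 for MG against NaCl and 5 (from 3) for the glyI2 difference in MG response. Without the libraries low in CCA1 that difference held 5 (from 3), and OE5 under MG 5 (from 3). Leaving out single libraries gave 760 to 1890 genes called in glyI2, 619 to 1049 in OE1, 538 to 1343 in OE5 and 764 to 1172 in WT under NaCl over the whole table, and 514 to 817 for the glyI2 difference in MG response, of which 1 to 4 other pathway genes. Low counts limit what can be seen for PR1, PR2 and PBS3.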
